A study of Mus musculus with 7 samples.

Results

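Rhd, Rhag, Slc4a1, Epb42, Ank1, Sptb, Ermap and Kel encode proteins of the red cell membrane, and their transcripts were followed in 7 libraries of single cells from mouse liver. The 8 genes were chosen by name from the 32285 genes that all 7 libraries list, and each symbol was found there once. The measurement is a count of unique molecular identifiers (UMIs), each standing for 1 captured transcript, per gene and cell barcode in a droplet assay. A level below is the number of UMIs of a gene summed over a set of cells, per 1000000 UMIs that are not haemoglobin UMIs. Haemoglobin was left out of the total because it took from 4.66% of UMIs in NEJ634 to 26.7% in NEJ709. Levels are compared between libraries and between cells for 1 gene at a time, and not between genes.

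The membrane of a red cell is held by a mesh of spectrin that lies under the lipid layer. Band 3 (Slc4a1) exchanges chloride for bicarbonate and is tied to beta spectrin (Sptb) by ankyrin (Ank1) and protein 4.2 (Epb42), and the Rh proteins (Rhd, Rhag) sit in the same complex. Kell (Kel) and the erythroblast membrane-associated protein (Ermap) carry blood group antigens. Red cells form from erythroblasts, which divide, fill with haemoglobin and lose their nucleus, and in the mouse the liver is a site of this process before birth and for a short time after it.

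The labels give each library the same disease state, a murine model of hepatoblastoma, and so assign none of them to a group. The study describes tumors of ABC-Myc mice, in which Alb-Cre removes the stop cassette of a CAG-driven human MYC transgene on a C57BL/6J background, so that MYC is driven in cells of the albumin-expressing hepatocyte lineage, and it describes healthy livers, with littermates that lack 1 or both alleles as its normal controls. The tumors it lists are NEJ723, NEJ709, NEJ687 and NEJ634, which leaves NEJ638, NEJ654 and NEJ677 as the healthy livers. The methods describe dissociation of tumor tissue from a perfused mouse and do not speak of pooling, the age of these mice is not given in the sources used here, and the description of NEJ709 names NEJ634. Values are therefore given per library, libraries do not count as replicates, and groups were not tested against each other. Intervals are exact 95% Poisson intervals and cover counting error only, and a 0 in a table of counts allows up to 3 counts.

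The total UMI count ran from 40214395 in NEJ638 to 132485391 in NEJ634, and 6716 to 17015 cells per library were analysed, with a median of 2108.5 to 4608.5 UMIs per cell. All 8 hepatocyte markers were detected in each library, yet hepatocyte-lineage-like cells were 6031 of 17015 in NEJ634 and 18 of 14611 in NEJ709. In NEJ709, 13372 cells fell in 2 unnamed clusters (1 and 6) led by mitochondrial and neutrophil genes, and the median cell of this library had 26.9% haemoglobin UMIs, beside 33.5% in its barcodes of low count. Libraries also shared cell barcodes. The pair NEJ654 and NEJ677 shared 178, and NEJ687 shared 111 with NEJ654 and 99 with NEJ677. Barcodes shared with any other library carried 38.0% of the UMIs of the 8 genes in NEJ654 and 34.2% in NEJ677, against at most 2.32% elsewhere. Library levels and the folds of NEJ654 and NEJ677 are given below also without the shared barcodes, and those of NEJ709 also without clusters 1 and 6.

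The genes lie on 7 chromosomes. By the GENCODE M21 annotation of GRCm38, matched by Ensembl identifier, Rhd (ENSMUSG00000028825) spans chr4:134864536-134896172 and Rhag (ENSMUSG00000023926) spans chr17:40811126-40840754, both on the plus strand. Slc4a1 (ENSMUSG00000006574) spans chr11:102348824-102366203 and Epb42 (ENSMUSG00000023216) spans chr2:121017891-121037072, both on the minus strand. Ank1 (ENSMUSG00000031543) spans chr8:22974844-23150497 on the plus strand and Sptb (ENSMUSG00000021061) spans chr12:76580488-76710547 on the minus strand. Ermap (ENSMUSG00000028644) spans chr4:119175457-119190011 and Kel (ENSMUSG00000029866) spans chr6:41686330-41704339, both on the minus strand. Ank1 is overlapped over 10792 bases by an antisense gene, Gm15816, that the libraries also list, and Sptb touches Plekhg3 at 1 base. Whether reads were split between these pairs was not tested, and whether intronic reads enter the counts was not settled.

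Promoter sequences of RefSeq (GRCm38.p6, 250 bases before to 50 after the start, on the strand of the gene) were found for 6 of the 8 genes, and those of Rhd, Ermap, Kel and Epb42 are shown because the first 3 had the lowest levels in the cells of highest haemoglobin share relative to cells of intermediate share, and Epb42 had one of the highest. Capitals mark matches on either strand to AGATAA or TGATAA, words of the kind that GATA factors bind, and to CACCC, a word of the kind that Klf1 binds. The windows are chr4:134864286-134864585 for Rhd, chr4:119189946-119190245 for Ermap, chr6:41704276-41704575 for Kel and chr2:121036828-121037127 for Epb42.
Rhd: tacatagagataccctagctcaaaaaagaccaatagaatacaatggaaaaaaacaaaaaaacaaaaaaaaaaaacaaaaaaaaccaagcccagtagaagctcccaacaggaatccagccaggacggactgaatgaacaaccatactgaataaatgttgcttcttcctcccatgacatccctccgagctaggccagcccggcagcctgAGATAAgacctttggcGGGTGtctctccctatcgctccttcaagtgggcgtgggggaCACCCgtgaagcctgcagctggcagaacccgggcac
Ermap: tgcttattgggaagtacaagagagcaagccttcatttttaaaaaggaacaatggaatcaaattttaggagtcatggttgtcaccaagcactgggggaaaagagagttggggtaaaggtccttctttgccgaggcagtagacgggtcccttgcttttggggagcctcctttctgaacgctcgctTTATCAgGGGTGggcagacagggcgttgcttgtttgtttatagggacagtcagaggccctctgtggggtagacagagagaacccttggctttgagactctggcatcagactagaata
Kel: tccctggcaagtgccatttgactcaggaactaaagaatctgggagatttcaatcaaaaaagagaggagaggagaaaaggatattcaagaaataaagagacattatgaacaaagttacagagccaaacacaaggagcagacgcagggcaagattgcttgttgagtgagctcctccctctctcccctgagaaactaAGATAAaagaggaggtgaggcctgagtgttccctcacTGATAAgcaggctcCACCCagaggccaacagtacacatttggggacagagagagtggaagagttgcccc
Epb42: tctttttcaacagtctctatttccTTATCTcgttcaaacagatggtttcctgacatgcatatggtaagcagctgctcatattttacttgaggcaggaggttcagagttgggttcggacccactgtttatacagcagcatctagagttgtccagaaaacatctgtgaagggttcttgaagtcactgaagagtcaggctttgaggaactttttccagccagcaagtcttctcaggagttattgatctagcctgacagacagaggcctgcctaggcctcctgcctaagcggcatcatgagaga
With the first base of the transcript counted as 1, the GATA word began at -43 in Rhd, at -67 in Ermap, at -56 and -19 in Kel and at -226 in Epb42. For Epb42 the RefSeq start lies inside the GENCODE span, which begins at 121037072 on the minus strand, within this window. The position of its GATA word and the lack of CACCC hold for the RefSeq start and were not read from the GENCODE one. AGATAA or TGATAA occurred in 5 of the 6 promoters and in 18.6% of the 32851 promoters of this length, and CACCC in 5 of the 6 and in 57.5% of all. Both words occurred together in 4 of the 6, Rhd, Rhag, Ermap and Kel, against 8.96% of all promoters. A match is a description of the letters, and binding was not measured.

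The first comparison was between libraries. All 8 genes had their 3 lowest levels in NEJ638, NEJ654 and NEJ677 and their median in NEJ634, and NEJ687, NEJ709 and NEJ723 held the 3 highest. Over 12543 genes of at least 500 UMIs, 12.2% had their 3 lowest levels in NEJ638, NEJ654 and NEJ677. The study itself singled out Rhd and Ermap from these samples, so their direction between libraries is not independent evidence.

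Rhd, which encodes the membrane protein that carries the Rh antigen, had a level of 423 (417 to 429) in NEJ687, 198 in NEJ709, 187 in NEJ723 and 65.9 in NEJ634. It was 9.58 in NEJ638, 2.64 in NEJ654 and 1.29 (0.876 to 1.83, from 31 UMIs) in NEJ677. The order had no neighbours with overlapping intervals, and the highest library stood 328 times above the lowest. Rhag, the partner that the Rh protein needs to reach the membrane, was 149 in NEJ709, 125 in NEJ687, 121 in NEJ723, 36.5 in NEJ634, 8.47 in NEJ638, 0.710 in NEJ654 and 0.457 in NEJ677. Its intervals overlapped between NEJ687 and NEJ723 and between NEJ654 and NEJ677.

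Slc4a1, the anion exchanger, was 869 in NEJ709, 820.5 in NEJ723, 711 in NEJ687, 160.3 in NEJ634, 57.2 in NEJ638, 10.0 in NEJ677 and 7.71 in NEJ654. Its ratio of highest to lowest library with the shared barcodes kept, 113, was the smallest of the 8 genes, and that of Ermap, 603, the largest. Epb42, the protein 4.2 gene, was 118 in NEJ709, 99.3 in NEJ687, 88.6 in NEJ723, 23.9 in NEJ634, 6.45 in NEJ638, 1.08 in NEJ677 and 0.659 in NEJ654. Slc4a1 and Epb42 were both highest in NEJ709 by summed counts, with the same 3 libraries at the low end.

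Ank1, which links band 3 to spectrin, was 163 in NEJ709, 154 in NEJ687, 139 in NEJ723, 39.6 in NEJ634, 6.0 in NEJ638, 1.33 in NEJ677 and 1.01 in NEJ654. Sptb, the beta spectrin of the mesh, was 189 in NEJ687, 160.4 in NEJ709, 117 in NEJ723, 48.4 in NEJ634, 8.80 in NEJ638, 2.25 in NEJ677 and 1.32 in NEJ654. For both genes NEJ677 and NEJ654 could not be separated by their intervals. Ermap, which carries the Scianna antigens, was 301 in NEJ687, 182 in NEJ723, 161 in NEJ709, 71.0 in NEJ634, 8.47 in NEJ638, 0.862 in NEJ654 and 0.499 in NEJ677. Kel, a zinc endopeptidase that carries the Kell antigens, was 137 in NEJ709, 103 in NEJ687, 90.6 in NEJ723, 32.5 in NEJ634, 13.1 in NEJ638, 0.956 in NEJ677 and 0.558 in NEJ654.

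Over the 8 orders, 8 of 48 neighbouring pairs of libraries overlapped, and 7 of these were NEJ654 with NEJ677. In 3 genes, Rhd, Ermap and Sptb, NEJ687 was highest, and 15% of the 12543 genes were highest there. By the mean of single cells, in place of summed counts, 7 of 8 genes were highest in NEJ687. The 15% was taken from summed counts, and the share over all genes by this mean is not given. Without the barcodes that libraries share, Rhd was at 1.07 in NEJ654 and 0.303 in NEJ677, and Ermap at 0.535 and 0.173. Rhag was then at 0.321 and 0.173, Kel at 0.268 and 0.260, and Epb42 at 0.535 and 0.650. Sptb was at 0.963 and 1.69, Ank1 at 0.803 and 0.910, and Slc4a1 at 5.62 and 8.10, so the 8 genes kept their lowest levels in this pair of libraries. The ratio of highest to lowest library was 1424 for Rhd and 1768 for Ermap, with 7 and 4 UMIs in the lowest library. Without the cells of clusters 1 and 6, Rhd in NEJ709 was at 192, Slc4a1 at 897, Ermap at 212 and Sptb at 187, and the remaining 4 genes between 133 (Epb42) and 171 (Ank1). A level over all cells of a library mixes the number of red cell precursors with the transcripts in each and with those counted in other cells. By itself it cannot tell fewer precursors from less RNA per precursor or from transcripts in other cells.

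**Figure D1:**
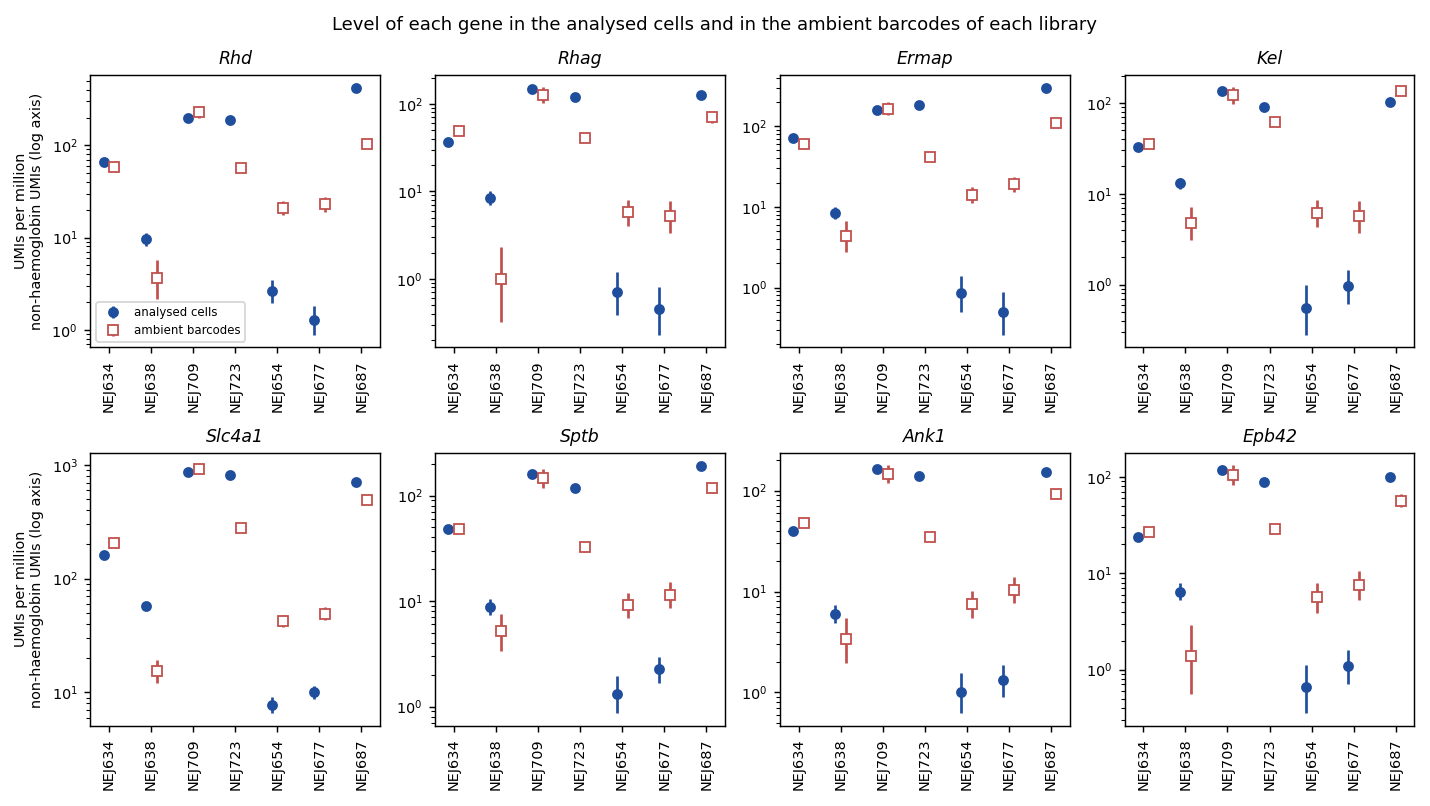
Level of each gene in the analysed cells of the 7 libraries (UMIs per 1000000 non-haemoglobin UMIs, log axis), with exact 95% Poisson intervals and the level in low-count barcodes of the same library beside it. In all 8 panels NEJ638, NEJ654 and NEJ677 hold the 3 lowest cell levels, as for Rhd at 9.58, 2.64 and 1.29.

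The level in cells was set beside the ambient level, which is that of the barcodes ranked 45000 to 90000 by UMI count and stands for free RNA. The barcode at rank 45000 held 90 to 460 UMIs in 6 libraries but 952 in NEJ634, so the ambient set of NEJ634 lies over the minimum of 500 UMIs for a cell at its upper end. Of 56 pairs of gene and library, 23 lay above the ambient level and 20 below it with intervals apart. In NEJ723 all 8 genes lay above (67.8% of genes tested did there), in NEJ687 7 of 8 (25.5%), in NEJ638 6 of 8 (90.5%) and in NEJ634 2 of 8 (39%), where Rhag, Slc4a1 and Ank1 lay below. In NEJ654 and NEJ677 none lay above (65.3% and 63.8%) and all 8 lay below, and in NEJ709 none lay above or below (4.94%). These ambient sets were not filtered for barcodes that are cells in another library. Without clusters 1 and 6, Ermap (212, interval 202 to 222) and Sptb (187, interval 178 to 197) did lie above the ambient level in NEJ709. The 4.94% is for all analysed cells, and the share over all genes without these clusters is not given. This is therefore not read as a result about Ermap and Sptb. Slc4a1 shows the 3 cases. Its level was 820.5 in cells against 278 in the ambient barcodes of NEJ723, 7.71 against 42.5 in NEJ654, and 869 against 919.7 in NEJ709. In NEJ687 Kel lay below, at 103 in cells and 135 in ambient barcodes.

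The next comparison was between cells of the same library, ordered by the share of their UMIs that came from 8 haemoglobin genes. Cells of at least 40% haemoglobin were most numerous in NEJ723 (5150), ahead of NEJ687 (2637), NEJ638 (1515) and NEJ677 (866). NEJ654 held 418, NEJ709 held 377 and NEJ634 held 254. All 9 erythroid markers were detected in these cells in each library, with a summed level of 11600 to 22560 beside 84.7 to 1088 in cells under 5% haemoglobin. Most of that sum in NEJ654 and NEJ677 was Alas2, at 9438 and 8573, while Gata1 was seen with 1 UMI in each and Klf1 with 3 and 2 UMIs. Tal1 was lower in the rich than in the poor cells of these libraries (11.1 against 13.5 and 4.99 against 13.2). A gene was called when its level in the cells of at least 40% was at least 4 times that in the cells under 5%, with at least 50 UMIs in both sets together.

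Of the 42 pairs that reached 50 UMIs, 42 were called, and 5.57% of all gene and library pairs were. In NEJ634, NEJ638, NEJ709, NEJ723 and NEJ687 all 8 genes were tested and called, where 11.4%, 1.72%, 6.37%, 4.7% and 7.23% of genes were called. In NEJ654 and NEJ677 Slc4a1 alone had enough UMIs, so the other 7 genes give no call there (6.4% and 1.08% of genes were called). A pair counted only if it reached the minimum, which a gene can do through the cells where it is high, so the count describes these pairs and not all 56.

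By point value Epb42 had a larger fold than Slc4a1 in each of the 5 libraries where both were tested, and the other 6 genes had smaller median folds. In NEJ638 the interval of Epb42, 392 to 89797, held the Slc4a1 fold of 984, so the order is not settled there. In NEJ634, NEJ709 and NEJ723 the intervals of Epb42 and Slc4a1 overlapped too, so the order is not settled in these libraries either. In NEJ634 Slc4a1 was at 3983 in haemoglobin-rich cells and 46.8 in haemoglobin-poor cells, 85.1-fold higher (79.6 to 90.9), and this was its smallest fold. The fold was 984 in NEJ638, 229 in NEJ709, 120.5 in NEJ723, 119 in NEJ687 and 2931 (1127 to 10861) in NEJ677, and it was at least 3701 in NEJ654, where the poor cells held 0 UMIs and 3 counts were taken as the limit. Without the shared barcodes these last 2 folds were 5333 in NEJ677 and at least 3525 in NEJ654. The folds of Epb42 were 98.9 in NEJ634, 374 in NEJ709, 140.4 in NEJ723 and 173 in NEJ687, and 2246 (392 to 89797) in NEJ638, where its poor cells held 1 UMI.

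For the remaining genes the fold over 5 libraries was lowest in NEJ723 or NEJ687 and highest in NEJ638. Rhd ran from 19.9 to 823 with a median of 59.6, and Rhag from 14.9 to 1109 (297 to 9317) with a median of 39.2. Ank1 had a median of 45.7 (25.2 to 222) and Sptb of 39.3 (23.8 to 171). Ermap had the lowest median, 35.3 (12.6 to 157), and Kel stood at 78.1 (32.6 to 559). The large values of NEJ638 rest on 1 to 18 UMIs in its poor cells, and its intervals are wide, as for Rhd at 273 to 4065.

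**Figure D2:**
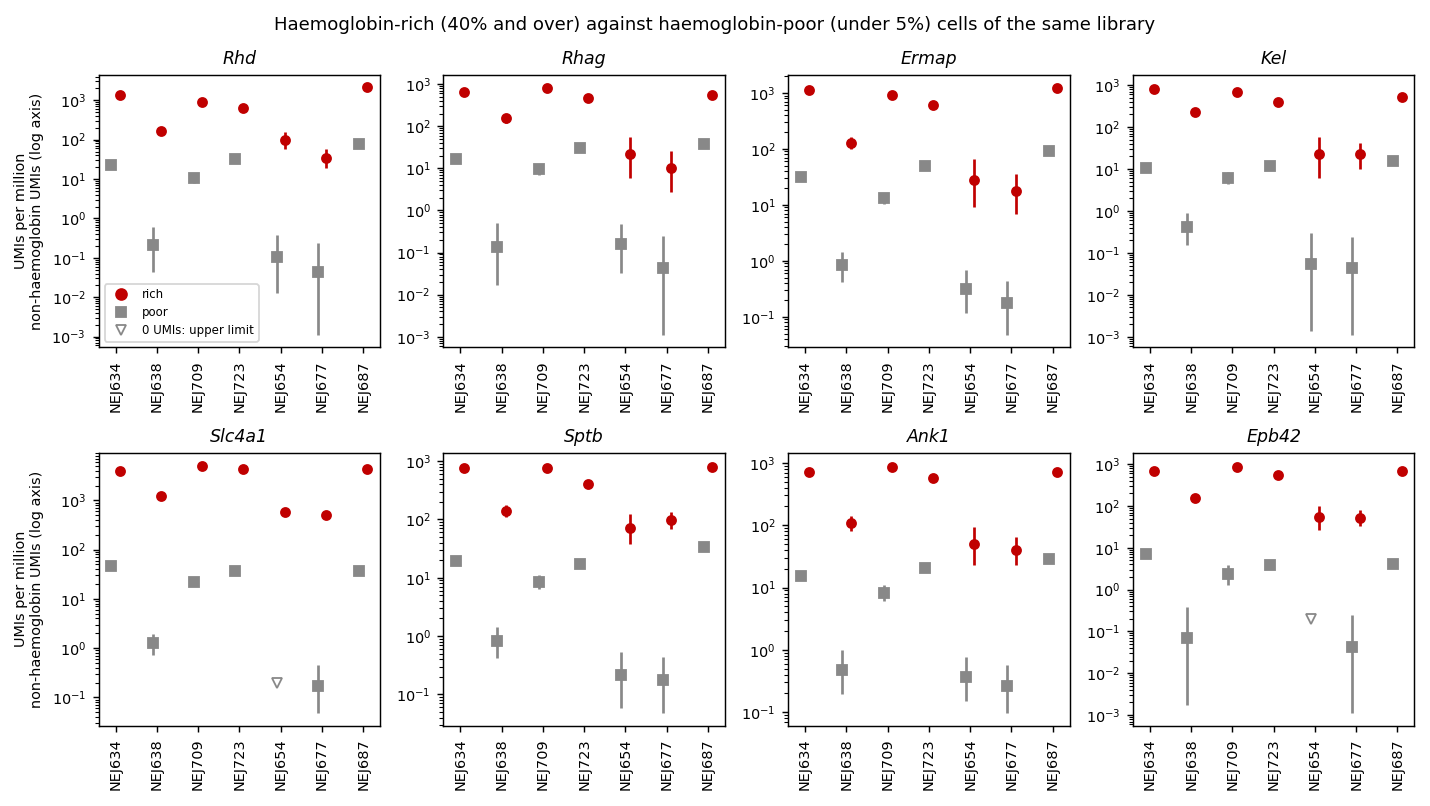
Level of each gene in cells under 5% and cells of at least 40% haemoglobin UMIs in the 7 libraries (UMIs per 1000000 non-haemoglobin UMIs, log axis), with exact 95% Poisson intervals. In each library the rich cells stand above the poor ones, and for Slc4a1 in NEJ634 the 2 levels are 46.8 and 3983.

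Haemoglobin-rich cells were not alike between libraries. The summed level of the 8 genes in them was 10029 in NEJ634, 10798 in NEJ709, 8054 in NEJ723 and 10999.5 in NEJ687, but 2311 in NEJ638, 939 in NEJ654 and 783 in NEJ677. As to free RNA, the ambient level of the 8 genes together was 528, 1959, 574 and 1175 in the first 4 of these libraries and 39.2, 112 and 132 in the other 3, so it too was higher in the first 4, and its part in the result was not tested. Cells of 80% haemoglobin and over made up 78.0%, 79.4% and 84.4% of the rich cells of NEJ638, NEJ654 and NEJ677, against 27.5% to 45.4% in the other 4 libraries.

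The order of cells was then cut into 7 bins of haemoglobin share. Reading 44 pairs of gene and library with at least 50 UMIs, the highest level fell in the bin of 40 to 60% in 26, in the bin of 60 to 80% in 15 and in the bin of 80% and over in 3. Of all such gene and library pairs, 86.4% had their highest level under 60%, and this difference was not tested.

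The genes differed in where they peaked. Rhd peaked at 40 to 60% in 6 of 6 libraries read, of which NEJ654 rests on 6 UMIs in that bin. In NEJ687 its level went from 47.6 in cells under 1% through 281, 517 and 1173 to 2466 (2403 to 2530) at 40 to 60%, and was 2280.2 at 60 to 80% and 416 at 80% and over. In NEJ638 the same bins gave 473 at 40 to 60% and 27.4 at 80% and over. Sptb peaked at 40 to 60% in 5 of 6, Ermap and Kel in 4 of 5 each, and Rhag and Ank1 in 3 of 5 each. In the other library of Sptb, NEJ677, it was highest at 80% and over (138). In 21 of the 44 pairs the interval of another bin overlapped that of the highest, in 2 of 6 for Rhd, 3 of 5 for Rhag and 4 of 5 for Ank1 but 1 of 5 for Epb42, so the peak bin is not settled there.

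Per 1000000 non-haemoglobin UMIs, Slc4a1 and Epb42 peaked later. Epb42 was highest at 60 to 80% in 5 of 5 libraries, at 1069 in NEJ634, 1063 in NEJ709, 967 in NEJ687, 640 in NEJ723 and 280.2 in NEJ638. Slc4a1 was highest at 60 to 80% in NEJ634 (5336), NEJ709 (5981), NEJ723 (4931) and NEJ687 (5399), at 40 to 60% in NEJ638 (2197), and at 80% and over in NEJ654 (688) and NEJ677 (709). In the last 2 libraries the level of Slc4a1 at 80% and over rests on 90 and 185 UMIs, and in cells of 40 to 60% it was 369 (159 to 727) in NEJ654 and 14.3 (0.361 to 79.5) in NEJ677, where 35 and 21 cells held 8 UMIs and 1 UMI. The bin of the peak depends on the total that a level is divided by and on the cells taken. Per 1000000 UMIs with haemoglobin, 42 of 44 pairs peaked under 60%, with every barcode over 500 UMIs 16 of 44 did, and with at least 100 cells per bin 16 of 38 did. With haemoglobin in the total, most of the later peaks of Slc4a1 and Epb42 thus fell under 60%. The share over all genes is not given for these settings.

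**Figure D3:**
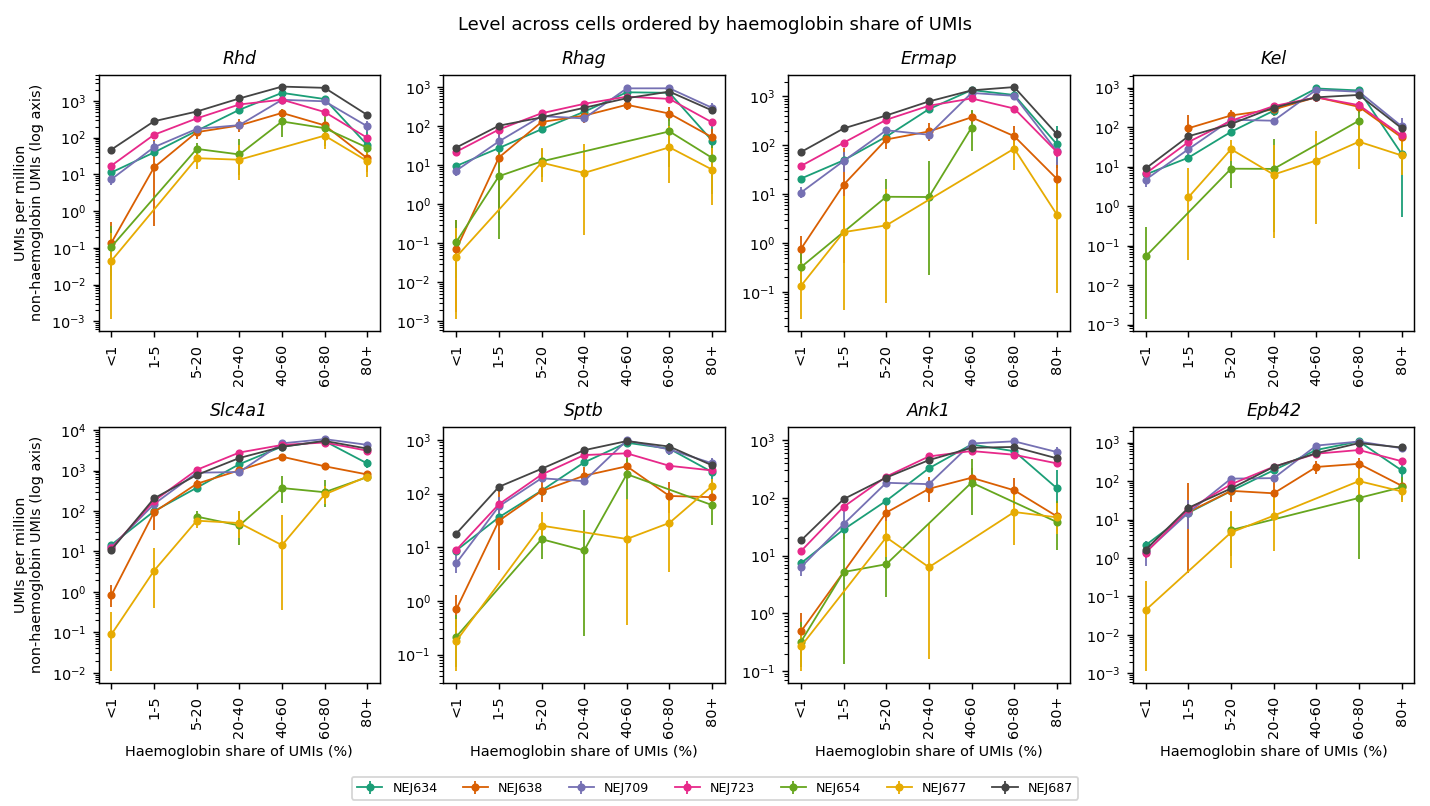
Level of each gene (UMIs per 1000000 non-haemoglobin UMIs, log axis) in 7 bins of the haemoglobin share of UMIs, 1 line per library, with exact 95% Poisson intervals. Bins with 0 UMIs of a gene are not drawn. Rhd is highest at 40 to 60% in the 6 libraries read, while Epb42 is highest at 60 to 80% in 5 of 5.

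Genes expressed at known steps of red cell formation were read over the same bins. Kit, a receptor of early progenitors, was at 0 to 2.91 at 40 to 60% in NEJ634, NEJ687, NEJ709 and NEJ723, but at 166 in NEJ638, 184 in NEJ654 and 271 in NEJ677, on 20, 4 and 19 UMIs, so it did not order the cells alike in all libraries. Klf1, an activator of erythroid genes, had medians over libraries of 2.88 under 1%, 315 at 40 to 60% and 35.0 at 80% and over, and Gata1, its partner in erythroid gene control, 3.42, 129 and 22.8. Tfrc, the transferrin receptor that brings in iron, had 125, 2244 and 473. In NEJ654 and NEJ677, Klf1 rested on 3 and 0 UMIs and Tfrc on 0 UMIs and 1 UMI at 40 to 60%. The 3 late genes went on to the last bin, where the median was 12173 for Alas2, the first enzyme of haem synthesis in red cells, 8868 for Bpgm, which makes 2,3-bisphosphoglycerate, and 4463 for Bnip3l, which clears mitochondria, beside 2518, 571 and 694 at 40 to 60%. In NEJ634, NEJ638, NEJ709, NEJ723 and NEJ687 none of the 8 genes had its highest level in that last bin.

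How much of the level at 40 to 60% was present at 80% and over was read in NEJ634, NEJ638, NEJ709, NEJ723 and NEJ687, since the bin of 40 to 60% held 35 cells in NEJ654 and 21 in NEJ677, with 0 to 8 UMIs of a gene. In NEJ677 the ratio lay above 1 for Slc4a1, at 49.7 (8.81 to 1974), and for Sptb, at 9.67 (1.63 to 393), each over 1 UMI, and in NEJ654 that of Slc4a1 was 1.86 (0.907 to 4.45). Of 40 pairs of gene and library, 37 had an interval of this ratio under 1, and 65.6% of all gene and library pairs did. The median ratio was 0.0780 for Ermap (0.0552 to 0.127), 0.0911 for Rhd (0.0379 to 0.189) and 0.108 for Kel (0.0221 to 0.166). Rhag stood at 0.220 (0.0578 to 0.486) and Sptb at 0.354 (0.265 to 0.479). Ank1 was at 0.610 (0.174 to 0.711), Epb42 at 0.638 (0.295 to 1.41) and Slc4a1 at 0.721 (0.364 to 0.919). The highest ratio of Ermap, Rhd and Kel lay below the lowest ratio of Slc4a1 and of Epb42, and the interval of Epb42 lay above 1 in 1 library, NEJ687. There Epb42 had 1251 UMIs in 671 cells at 40 to 60% and 435 UMIs in 1053 cells at 80% and over. The ratios thus compare shares of non-haemoglobin UMIs and not UMIs per cell, and they depend on that total. NEJ638 set the lowest ratio for Slc4a1, Sptb and Ermap, and 1332 of its 1515 rich cells fell in an unnamed cluster (10). That cluster held 31 of 254 rich cells in NEJ634, and 2 of 377, 20 of 5150 and 6 of 2637 in NEJ709, NEJ723 and NEJ687. Without NEJ638 the lowest ratios of Slc4a1, Sptb and Ermap were 0.382, 0.284 and 0.0644. NEJ634 set the lowest ratio for Rhd, Rhag, Kel, Ank1 and Epb42, on 3, 2, 1, 7 and 9 UMIs at 80% and over. Without NEJ634 the lowest ratios of these genes were 0.0581, 0.148, 0.0959, 0.215 and 0.325, all in NEJ638.

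**Figure D4:**
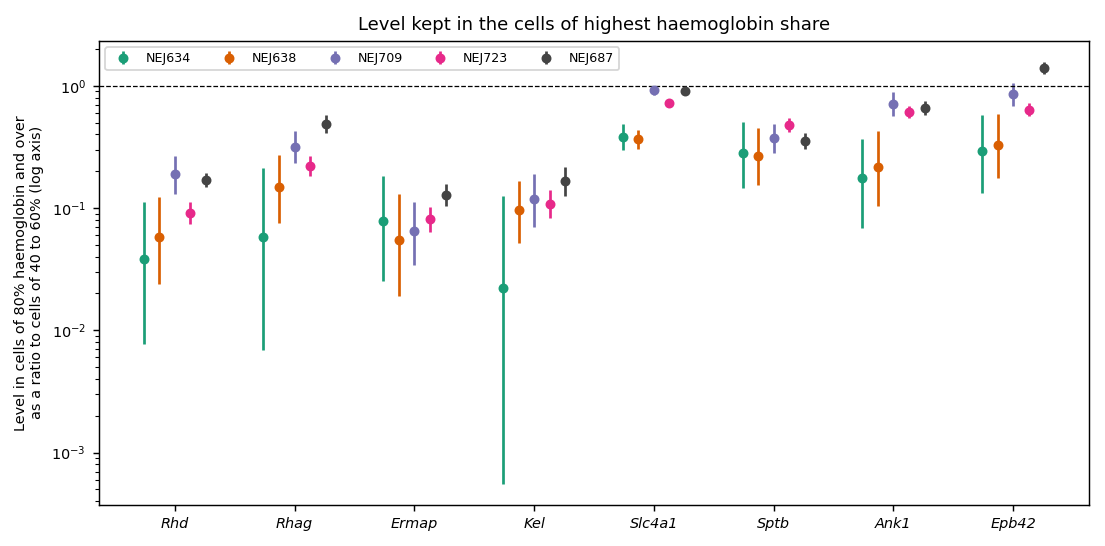
Ratio of the level in cells of 80% haemoglobin and over to the level in cells of 40 to 60% (log axis), per gene and for 5 libraries, with exact 95% intervals. Ermap, Rhd and Kel lie between 0.0221 and 0.189, and Slc4a1 between 0.364 and 0.919.

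The cells were also grouped without using the 8 haemoglobin genes that ordered them. Clusters were made from genes other than the 8 membrane genes, those haemoglobin genes and 39 other red cell membrane genes, and named from marker genes. Erythroid-like cells, clusters 13 and 9, were 2303 of 7768 cells in NEJ687 (29.6%), 2705 of 12458 in NEJ723 (21.7%), 252 of 14611 in NEJ709 (1.72%), 168 of 17015 in NEJ634 (0.987%) and 65 of 6716 in NEJ638 (0.968%). In NEJ654 and NEJ677 they were 2 of 7326 and 1 of 7423, and no level was read there. Erythroid-like cells held 18.1% to 26.3% of the UMIs of each gene in NEJ709 and 21.9% to 29.8% in NEJ634. Their part was 77.7% to 88.0% in NEJ687, 77.7% to 86.5% in NEJ723 and 60.7% to 85.7% in NEJ638. In NEJ709 the unnamed clusters 1 and 6 held 11903 and 12959 of the 32229 UMIs of Slc4a1. Among the named classes of a library the erythroid-like class was the highest in 40 of 40 pairs, and 14.5% of all gene and library pairs of at least 50 UMIs were highest in it.

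Within this class the libraries lay closer together than over all cells. Rhd was at 813 in NEJ723, 924 in NEJ709, 1004 in NEJ638, 1029 in NEJ634 and 1316 in NEJ687, so the highest was 1.62 times the lowest (1.58 to 1.66), where the same 5 libraries ran from 9.58 to 423 over all cells. The order over all cells was not kept, since NEJ638, the lowest of the 5 over all cells, lay above NEJ723 here with intervals apart (836 to 1195 against 797 to 829.8), though it overlapped NEJ709 and NEJ634. Ermap ran from 752 to 1051 (1.40 times) and Ank1 from 462 to 754 (1.63 times). Sptb ran from 485 to 862 (1.78 times), Slc4a1 from 2242 in NEJ687 to 4238 in NEJ638 (1.89 times) and Epb42 from 300.4 to 579 (1.93 times).

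Rhag and Kel were the most uneven, at 351 to 805 (2.29 times) and 328 to 1298 (3.96 times, 3.37 to 4.64), and both were highest in NEJ638 and lowest in NEJ687. For Kel the gap held within both clusters of the class, at 2106 (29 cells) against 628 (1257 cells) in cluster 9 and 1029.7 (36 cells) against 239.6 (1046 cells) in cluster 13. T/NK-like cells, which should lack these transcripts, had levels from 0 to 38.2 in the same libraries for the 7 genes other than Slc4a1, and 7.28 to 102 for Slc4a1. For Slc4a1 the highest level in any other named class was 252, in macrophage-like cells of NEJ709.

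The 8 genes were then read in erythroid-like clusters 13 and 9 and in the unnamed clusters 5 and 10. Clusters 1 and 6, at 24.8% and 29.3% haemoglobin and mostly of NEJ709, were left out here. Cluster 13 (2254 cells, 22.8% haemoglobin) was led by histone genes, cluster 9 (3242 cells, 60.3%) by Slfn14, Xpo7 and Tmcc2, and cluster 5 (4289 cells, 80.9%) by Bpgm and Ube2o. Over these 3 clusters the level was highest in cluster 9 in 40 of 40 pairs, and 26.2% of gene and library pairs of at least 50 UMIs were highest there. The interval of the ratio to cluster 9 reached 1 in 6 of 40 pairs for cluster 13, of which 5 were in NEJ638, and in 3 of 40 for cluster 5, so the highest cluster is not settled in those pairs. Cluster 13 held a median of 0.666 of the cluster 9 level for Rhd and 0.813 for Sptb but 0.240 for Epb42 and 0.366 for Slc4a1, and Kel stood at 0.410 and Rhag at 0.460. Epb42 had the lowest of these ratios in each of the 5 libraries, while Slc4a1 lay above Rhag in NEJ709 and above Kel in NEJ638. Cluster 5 held 0.0707 for Ermap, 0.0956 for Kel and 0.175 for Rhd, against 0.431 for Epb42, 0.475 for Ank1 and 0.510 for Slc4a1.

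A further unnamed cluster, cluster 10 (3026 cells, 86.5% haemoglobin), held 1342 cells of NEJ638, 777 of NEJ654 and 841 of NEJ677 and at most 36 of any other library. It contained 87.9%, 90.9% and 93.4% of the haemoglobin-rich cells of those 3 libraries, and its leading genes were of the exocrine pancreas (Ctrb1, Try4, Clps). In NEJ638 its level was 18.8 for Rhd against 1021 in cluster 9 (a ratio of 0.0184), 10.7 for Ermap against 1085 and 615 for Slc4a1 against 5809. Most haemoglobin-rich cells of NEJ638, NEJ654 and NEJ677 therefore belonged to a cluster in which the 8 genes were low, and most of those of the 4 tumor libraries belonged to clusters 13, 9 and 5, which in NEJ634 held 14, 70 and 80 of 254 such cells.

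**Figure D5:**
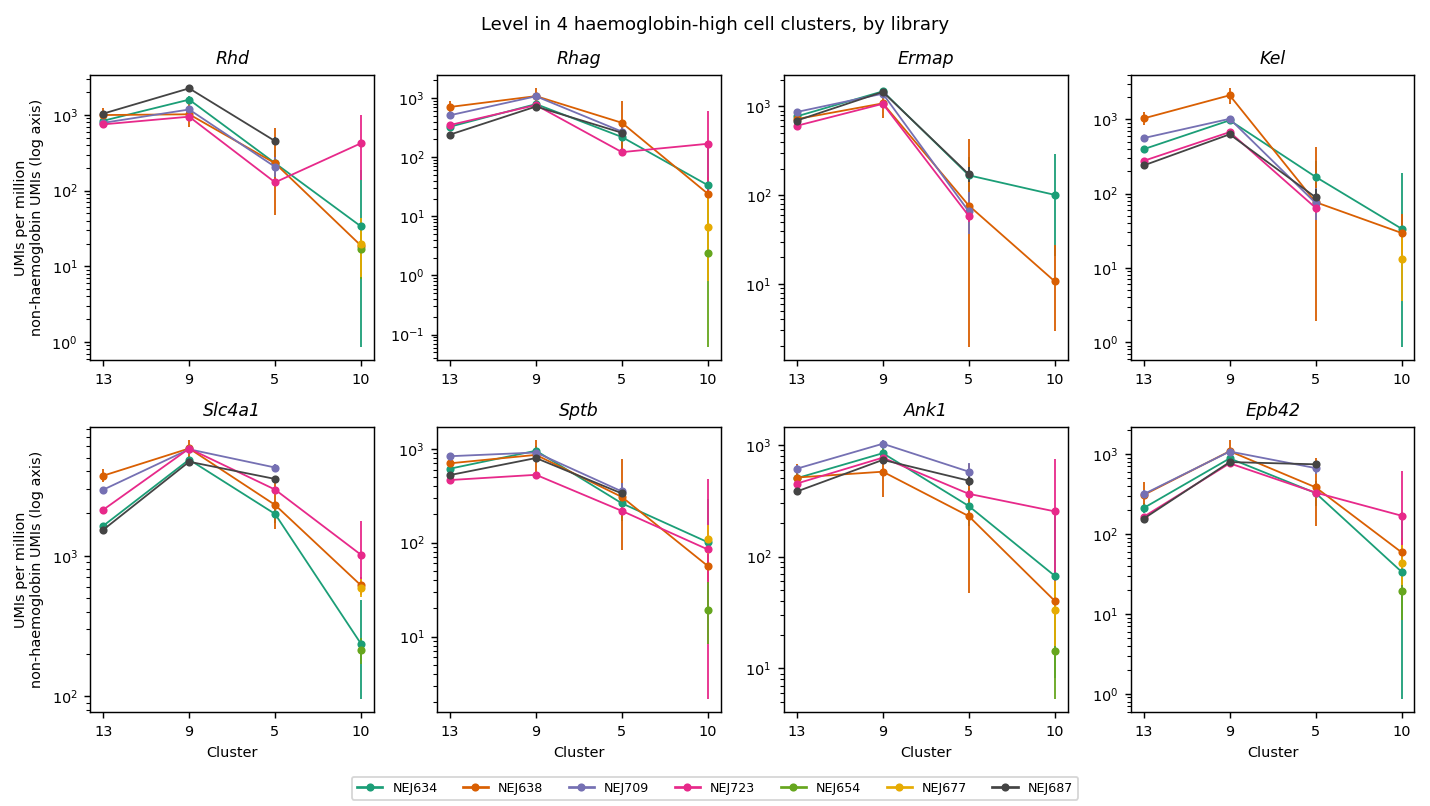
Level of each gene (UMIs per 1000000 non-haemoglobin UMIs, log axis) in clusters 13, 9, 5 and 10, in order of rising haemoglobin share from 22.8% to 86.5%, 1 line per library with at least 20 cells in a cluster, with exact 95% Poisson intervals. Points with 0 UMIs are not drawn, and cluster 10 of NEJ723 has 20 cells. In each of 5 libraries the point of cluster 9 is the highest of clusters 13, 9 and 5 for all 8 genes, with the ratio to cluster 9 reaching 1 within its interval in 6 of 40 pairs for cluster 13 and 3 of 40 for cluster 5.

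Shares of cells with a UMI were compared after each cell was thinned to 500 UMIs without haemoglobin, which left out 35 of 5493 erythroid-like cells. Over 5 libraries, Slc4a1 was seen in 74.4% to 87.3% of thinned erythroid-like cells and in 0.329% to 5.09% of T/NK-like cells. Rhd was seen in 32.5% to 56.4% against 0% to 2.55%, and Ermap in 34.4% to 46.7% against 0% to 2.36%. The lowest shares of erythroid-like cells were 21.3% for Sptb and 21.4% for Kel, and those of Rhag, Ank1 and Epb42 were 25.1%, 26.9% and 25.3%. Before thinning the share for Slc4a1 was 96.9% to 100% in erythroid-like cells (median depth 3250 to 8926.5 UMIs) and 1.15% to 21.8% in T/NK-like cells (1643 to 7299 UMIs).

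Other genes of the red cell membrane were read the same way. Of 39 such genes 38 were tested, and 114 of 243 pairs of gene and library were at least 4 times higher in haemoglobin-rich cells, with a median fold of 3.35 beside 0.498 over all genes. The libraries differed, since the median fold of the list was 6.93 in NEJ634, 11.3 in NEJ709, 5.55 in NEJ723 and 6.57 in NEJ687, but 1.01 in NEJ638, 0.818 in NEJ654 and 0.607 in NEJ677. Over all genes the median was 0.729, 0.379, 0.411 and 0.365 in the first 4 and 0.403, 0.721 and 0.550 in the other 3. In the first 4 of these libraries 23 of 37, 24 of 35, 21 of 38 and 25 of 36 genes were called, where 11.4%, 6.37%, 4.7% and 7.23% of all genes were. In the other 3 libraries 9 of 34, 6 of 31 and 6 of 32 were called, where 1.72%, 6.4% and 1.08% of all genes were. The skeleton genes gave 38 of 57 pairs, the transporters and channels 34 of 79, and the adhesion proteins and blood group carriers 42 of 107, beside 5.57% of all pairs. By median fold over libraries Dmtn, the actin-bundling dematin gene, was among the highest, at 71.4. The lowest were the glucose transporter gene Slc2a1 at 0.245, the tropomyosin gene Tpm3 at 0.247 and Gcnt2, which makes the I antigen, at 0.300. The list thus held genes far above and below 1, whereas the lowest fold of the 8 genes was 12.6, for Ermap in NEJ723.

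The 8 genes varied together. Over 33 units, each a haemoglobin bin of 1 library with at least 20 cells and 200000 non-haemoglobin UMIs, the Spearman correlation of their levels ran from 0.881 to 0.990 over 28 pairs of genes, highest for Slc4a1 with Epb42 and lowest for Ermap with Epb42. The units share libraries, so they are not independent, and the values describe these units. They are bins of the haemoglobin order along which the 8 genes were already seen to rise, and pairs among other genes were not read for comparison. Among 12534 genes, with the 8 themselves and haemoglobin left out, the closest to Rhd was Ubac1 (0.976), to Rhag the amino acid transporter gene Slc43a1 (0.983) and to Ermap the erythroid regulator Sox6 (0.981). Dmtn was closest to Kel (0.983), and the adducin gene Add2 to Sptb (0.980) and Ank1 (0.986). E2f2 was closest to Slc4a1 (0.976) and Gm20161 to Epb42 (0.977). Of the 24 places, 3 for each gene, Dmtn and Add2 took 4 each. With Pearson correlation 7 of the 24 places were filled by the same genes.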

How the data were processed

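Single cells of 7 mouse liver samples were measured with a droplet 3' kit (Chromium v3). In the deposited matrices each value is a raw UMI count for 1 gene and 1 barcode, unfiltered and not normalized. Per the file headers they came from Cell Ranger 4, whereas the labels name Cell Ranger 6.0, and the build is not given in the sources used here. The study's methods state that intronic reads were included, which was not settled for these files, so a UMI may stand for spliced or unspliced RNA. Cells were called from the counts by a 99th percentile rule and a test against the ambient profile (barcodes ranked 45000 to 90000, 10000 draws, adjusted p of 0.01), keeping those over 500 UMIs in which mitochondrial genes took at most 20%. At most 20000 candidates per library were tested, a limit that was reached in NEJ634, NEJ709 and NEJ723. The highest Scrublet scores were removed at 0.8% per 1000 cells, since the threshold of Scrublet itself marked at most 10 cells a library. Clusters (scanpy 1.11.5, leidenalg 0.10.2, 2000 variable genes, 40 components, 15 neighbours, resolution 1) were named from fixed markers. They were made without 8 haemoglobin genes of the Hba and Hbb families, the 8 genes reported here and the 39 listed membrane genes. The haemoglobin gene Hbq1a was not listed and counts among non-haemoglobin UMIs.

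A level is the summed UMIs per 1000000 non-haemoglobin UMIs, and intervals are exact at 95%. A fold was read from 50 UMIs, a bin from 20 cells and 20000 non-haemoglobin UMIs, a correlation on log2(level + 1). Computation on simulated data with NEJ687 returned a median fold of 8.02 for genes simulated at 8, and 0 of 11783 genes simulated without a difference were called. Simulated on NEJ654, 516 of 11850 such genes were called.

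The genes and lists were chosen with earlier results of these data known. Genes named beside the 8 were the 3 highest and 3 lowest other membrane genes by median fold (tested in at least 4 libraries), the 3 genes most like each member and a fixed set of stage genes; for likeness the first of the 3 is given, and some genes under this rule are not reported here. Leading genes of clusters were named after their values were seen. Alternatives covered cell calling, mitochondrial limit, doublets, shared barcodes, the total, thresholds, resolution and thinning.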

Additional observations from a re-analysis of the deposited data

Results flagged for a closer look

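Barcodes over 500 UMIs that were not called as cells were outside the comparisons, and in 4 libraries they carried the 8 genes above the limit that a count of 0 allows. Only 20000 candidates were tested of 68463 in NEJ634, 36117 in NEJ723 and 22814 in NEJ709. Uncalled barcodes of these libraries therefore include untested ones, which are most of those in NEJ634 and in NEJ723. Their summed level was 622 in NEJ634 (46741 barcodes), 1930.0 in NEJ709 (9295 barcodes), 625 in NEJ723 (9562 barcodes) and 1970.1 in NEJ687 (808 barcodes). The ambient level of the same libraries was 528, 1959, 574 and 1175, and the level in analysed cells was 478, 1955, 1745 and 2106. The uncalled barcodes lay above the ambient level with intervals apart in NEJ687 (1842 to 2105 against 1137 to 1215) and NEJ723 (604 to 647 against 561 to 587). In NEJ634 the intervals were 615 to 629.8 against 519 to 538. Its ambient set begins at 952 UMIs and so shares barcodes with the uncalled set, and its values do not compare uncalled barcodes with free RNA. In NEJ709 the intervals overlapped. NEJ654 and NEJ677 held 0 UMIs and 1 UMI of the 8 genes in 416 and 236 such barcodes. What these barcodes hold was not tested.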

How the results depend on the processing

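No paired analysis was possible because the labels assign no groups and give no replicate numbers, and ratios between cells were taken within each library. Of 476 log2 folds recomputed under alternatives none changed direction, while 156 moved by more than their counting interval, as did 176 of 448 levels. The lowest fold of the 42 tested pairs was 12.6, so a change of direction was unlikely beforehand and its absence tells little. The 8 genes kept their 3 lowest levels in NEJ638, NEJ654 and NEJ677 under each alternative run for it, and the count above ambient was 19 to 31 of 56. The count highest in NEJ687 was 7 of 8 by the mean of single cells. Peaks under 60% numbered 16 of 44 with every barcode over 500 UMIs, 42 of 44 with all UMIs as the total and 16 of 38 with 100 cells per bin. With all UMIs as the total, 71 of 243 pairs of other membrane genes and 41 of 42 pairs of the 8 genes were called. Shares over all genes are not given for the counts under these alternatives. By Pearson correlation 7 of 24 nearest genes were shared. Leaving out clusters 1 and 6 was chosen after seeing the data. NEJ654 and NEJ677 held 305 and 430 UMIs of the 8 genes and 2 and 1 erythroid-like cells, beside 1811 UMIs and 65 such cells in NEJ638, whose total count was no higher.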
